A study of Mus musculus with 8 samples.

Results

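The mRNAs of 8 genes that encode readers of N6-methyladenosine (m6A) were examined: Ythdf1, Ythdf2, Ythdf3, Ythdc1, Ythdc2, Igf2bp1, Igf2bp2 and Igf2bp3. Members were taken by gene name from the m6A peak lists of 4 immunoprecipitated (IP) libraries, which held 38705 peaks in 9779 genes. The readers held 44 of these peaks, and overlapping peaks of different libraries merged into 19 of 21168 regions. A peak was found for 6 of the 8 genes, and Ythdc2 and Igf2bp3 had no peak in any list.

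The libraries came from MeRIP-seq, in which an anti-m6A antibody enriches methylated mRNA fragments and an input without antibody is sequenced beside them. All 8 samples were wild type C57BL/6 mouse embryonic fibroblasts (MEFs), isolated at 13.5 days post-coitum and used at passages 5 to 6. Control and starved cells each gave 2 replicates, with an IP and an input library apiece, so 4 groups of 2. Control cells stayed untreated, and starved cells were kept for 2 h in nutrient-deprived medium, which the methods describe as a buffered salt solution. The labels do not say whether replicates were separate cultures, and the supplement of the study calls them biological replicates. The limma p-values rest on the spread between these libraries, with the variance of each region drawn towards that of all tested regions. The comparison of starved with control cells addressed how m6A on mRNAs shifts under nutrient deprivation, and Ythdf3 is the reader the study follows.

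Readers are proteins that recognise m6A after a methyltransferase complex has written it, most often at a GGAC core. YTHDF1, YTHDF2 and YTHDF3 are cytoplasmic proteins with a YTH domain that have been linked to translation and to decay of m6A-marked mRNAs, YTHDC1 acts in the nucleus in splicing and export, and YTHDC2 is a helicase best known from meiosis. IGF2BP1, IGF2BP2 and IGF2BP3 bind mRNA through KH domains and are known for stabilising their targets. Their own mRNAs can carry m6A as well, and that is what was measured here.

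The stretches below hold GGAC letters in regions the results turn on: the long exon of the YTHDF genes, both regions of Ythdc1 with a peak in every library, the stop codon region of Igf2bp1 and the last exon of Igf2bp2. Each run is 30 bases of the transcribed strand, 5′ to 3′, with GGAC in capitals. The number after a gene name is the distance in nt from the stop codon, negative when upstream.
Ythdf3 -343: tgtgaatggcagtGGACatttttgtggagt
Ythdf2 -343: tgtcaacggcagtGGACacttctgtggagt
Ythdf1 -346: tgtcaatgggagtGGACatttctgtggggt
Ythdf3 -1483: tctgacaacctatGGACaaatgagtaatgg
Ythdf2 -1468: tctaacttcttatGGACaactgagcaacgg
Ythdf1 -1408: tctcactacctatGGACaacttagtaatgg
Ythdf3 -508: gaacctgaagaatGGACgtgtgtttataat
Ythdf3 -155: taaccaattcaagGGACactcaagaagtac
Ythdc1 -1457: aagaagaggatgaGGACgaggatgaagagg
Ythdc1 -35: gaatatgtgatcgGGACagagaccgagggg
Igf2bp1 -31: acagcaccagaagGGACagagcaacctggc
Igf2bp2 292: tcctcagttcccaGGACgctatccctttcg

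All were read from the RefSeq GRCm38.p6 genome, the assembly of mm10 that the peak lists use. The Ythdf3 runs lie on the + strand at chr3:16205088-16205117, chr3:16203948-16203977, chr3:16204923-16204952 and chr3:16205276-16205305, in the order printed. Those of Ythdf2 lie on the - strand at chr4:132204439-132204468 and chr4:132205564-132205593, and those of Ythdf1 on the - strand at chr2:180910994-180911023 and chr2:180912056-180912085. The Ythdc1 runs are at chr5:86817160-86817189 and chr5:86835856-86835885 on the + strand, and the Igf2bp1 and Igf2bp2 runs are at chr11:95963519-95963548 and chr16:22060489-22060518 on the - strand. The first 6 runs are the windows of the long coding exon that the 3 YTHDF genes share when at least 20 of 30 letters must be equal in each pair: 26 letters were equal in every pair for the run near -343, and 23 to 26 for the run near -1483. No other GGAC window of that exon, among 10 in Ythdf1, 11 in Ythdf2 and 8 in Ythdf3, was shared by all 3 genes at that level. The run near -343 lay under a peak in 4 libraries for Ythdf3, 2 for Ythdf2 and 3 for Ythdf1, and the run near -1483 in 3, 3 and 1. The Igf2bp1 run lay under a peak in control 1 and control 2. For the Igf2bp2 run it was control 1, control 2 and starved 1, and the starved 2 peak did not reach it.

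Each library had its own list of peaks. Fold enrichment is the authors' ratio of IP to local input background, and the score is minus 10 times log10 of the peak's p-value, with an upper limit of 3100. The lists held 8974 to 10103 peaks per library with median fold enrichments of 12.2 to 14.7, and 13.2% to 28.5% of the peaks of a list stood at the score limit. They give no reads, so the depth of each library and the counting error of a peak are unknown, and a missing peak does not show that m6A was absent. Of 12 fibroblast markers, 8 had a peak: Col1a2, Col3a1, Fn1, Pdgfra, Pdgfrb, Prrx1, Thy1 and Twist1. Col1a1, Vim, Twist2 and Lox had none, and single libraries held peaks of 6 or 7 of the 12. Lists for other cell types were shorter, so the counts cannot be ranked. In them, Krt8 and Krt18 of 4 epithelial markers and Cd68 of 3 leukocyte markers had a peak. So did Kdr of 3 endothelial markers and Sox2 of 3 pluripotent markers, with Sox2 peaks in every library. A peak needs RNA that is both present and methylated, so these counts are not expression levels.

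Reader peaks numbered 14 in control 1, 11 in control 2, 8 in starved 1 and 11 in starved 2. The control libraries held 12.5 ± 2.12 (SD, n = 2) and the starved libraries 9.5 ± 2.12 (SD, n = 2), and the ranges met at 11. The number of reader genes with a peak was 6, 6, 5 and 6 in the same order, since Ythdf2 had none in starved 1. Fold enrichment of the 44 peaks ran from 3.29 to 451.29 with a median of 11.7, and 19 of them were above the median of their library. At the score limit stood 17 of 44 (38.6%), against 21.4% of all peaks.

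**Figure D1:**
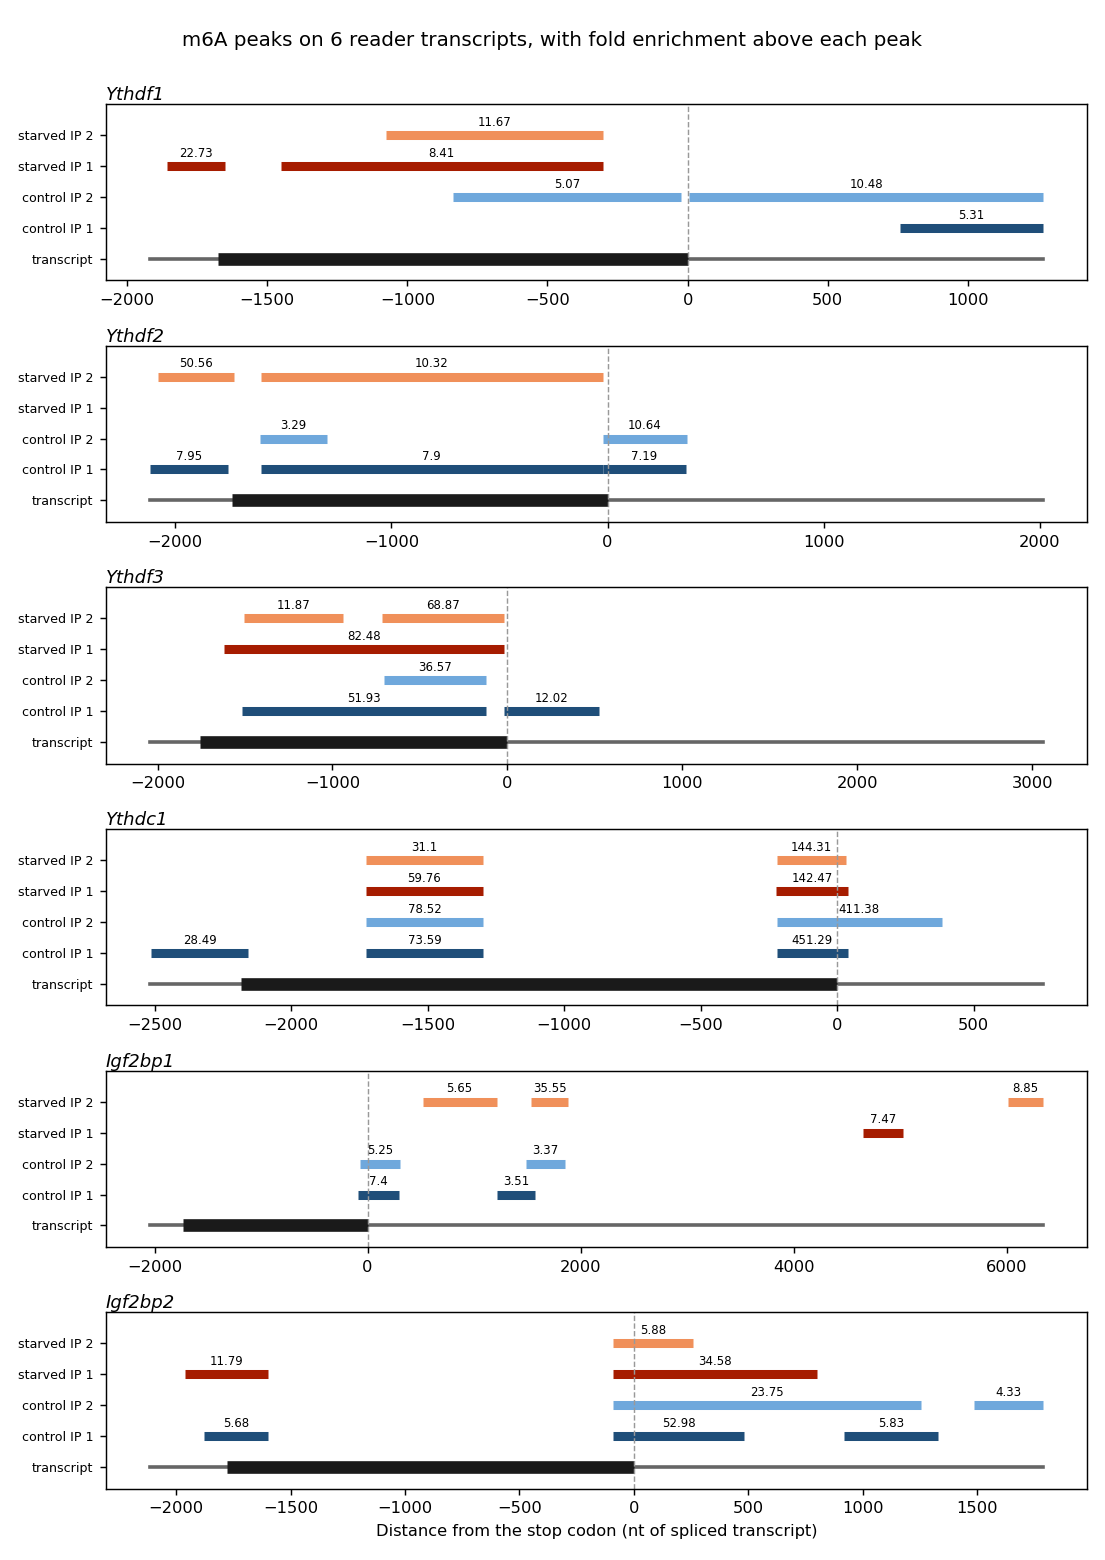
Peaks on the 6 reader transcripts with a peak, plotted by distance from the stop codon in nt of spliced transcript (thick black bar, coding sequence; thin line, UTRs; dashed line, stop codon), 1 row per IP library, with the fold enrichment above each peak. Ythdc1 shows the same 2 places in all 4 libraries, whereas Igf2bp1 peaks are spread over its long 3′ UTR.

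Ythdf3 carried its m6A signal on 1 long coding exon, in every library. This exon, exon 4 of 5 on chr3:16203826-16205424, is 1599 nt long and holds 91.1% of the coding sequence. In control 1 a peak covered chr3:16203927-16205322 with a fold enrichment of 51.93 and a score of 3100. In control 2 the peak was shorter, chr3:16204741-16205325, with 36.57-fold enrichment and a score of 3100. These control peaks covered 87.3% and 36.6% of the exon.

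In starved 1 the peak took the whole exon, chr3:16203826-16205424, with a fold enrichment of 82.48 and a score of 3100. Starved 2 had 2 peaks there, chr3:16204733-16205424 with 68.87-fold enrichment and a score of 3100, and chr3:16203943-16204503 with 11.87-fold enrichment and a score of 1571.9. Together they covered 78.4% of the exon. Both starved libraries were above both control libraries in the strongest peak. The stretch under the strongest peak of every library held 3 of the 8 GGAC sites of the exon, the runs printed for -508, -343 and -155.

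The Ythdf3 exon had a mean fold enrichment of 44.25 ± 10.9 (SD, n = 2) in control and 75.7 ± 9.62 (SD, n = 2) in starved libraries. On the log2 scale the difference was 0.79 (SE 0.69, 95% interval -0.78 to 2.36), or 1.73-fold between geometric means. It did not pass the test, with an adjusted p of 0.745 in limma over 2257 regions that had a peak in all 4 libraries. A gap of this kind, with both starved libraries above both control libraries, was found in 22.9% of these regions. With the mean of a library's peaks in place of its strongest the difference was 0.41. The groups then overlapped, since the mean of the starved 2 peaks was below the control 1 value. With each library centred on its median the difference was 0.58. These are bulk libraries, in which a change in the mix of cells and a change in methylation per cell cannot be told apart. The exact permutation test of 2 against 2 libraries gave 0.33, the smallest p it allows.

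A second Ythdf3 peak was seen in control 1, at chr3:16213955-16214499 over the stop codon and the start of the 3′ UTR, with a fold enrichment of 12.02 and a score of 2077.04. The other 3 libraries had no peak there. This region held no GGAC on the transcribed strand.

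Ythdf1, a reader linked to translation, has the same gene layout, with an exon 4 of 1521 nt that holds 90.7% of the coding sequence. Here 3 libraries had a peak. Control 2 had one at chr2:180910687-180911500 with 5.07-fold enrichment and a score of 234.45, starved 1 at chr2:180910965-180912113 with 8.41-fold enrichment and a score of 377.56, and starved 2 at chr2:180910965-180911740 with 11.67-fold enrichment and a score of 862.44. All 3 peaks covered the run printed for -346. Control 1 had no peak on this exon, so it entered no test.

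On the last exon of Ythdf1 the order was the other way. Control 1 had a peak at chr2:180904377-180904885 with 5.31-fold enrichment and a score of 312.49, and control 2 one at chr2:180904377-180905637 with 10.48-fold enrichment and a score of 1191.27. Neither starved library had a peak on this exon. The control 1 peak lay at the far end of the 3′ UTR, centred 1013 nt past the stop codon, and that of control 2 came within 7 nt of the stop codon. A further peak on the first exon, in the 5′ UTR at chr2:180920684-180920890, was found in starved 1, with 22.73-fold enrichment and a score of 522.14.

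Ythdf2, which recruits the deadenylase that shortens poly(A) tails, had peaks in 3 libraries and none in starved 1. Its exon 4 of 1584 nt was covered whole, chr4:132204132-132205715, in control 1 with 7.9-fold enrichment and a score of 2199.69, and in starved 2 with 10.32-fold enrichment and a score of 987.69. In control 2 a peak of 307 bp at the 5′ end of the exon, chr4:132205409-132205715, had 3.29-fold enrichment and a score of 53.91. The value of starved 2 was above both controls, but starved 1 had no peak, so no difference was tested.

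At the Ythdf2 stop codon both controls had a peak, control 1 at chr4:132186566-132186947 with 7.19-fold enrichment and a score of 381.85, and control 2 at chr4:132186559-132186947 with 10.64-fold enrichment and a score of 786.44. Neither starved library had one. On the first exon, in the 5′ UTR, control 1 had a peak at chr4:132211947-132212303 with 7.95-fold enrichment and a score of 248.82, and starved 2 one at chr4:132211918-132212270 with 50.56-fold enrichment and a score of 3100. The 2 libraries of each group thus disagreed at this place.

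Reads of Ythdf2 may be shared with copies elsewhere. The long exon matched chrX:70420740-70422322 and chrX:70517909-70519491 at 96.3% identity over 1584 bp, and the stop codon region matched 2 adjoining stretches of chromosome X at 92.9% and 93.6% identity. How reads with several matching places were counted is not given in the sources used here, so these Ythdf2 values are uncertain. No region of the other readers had a close copy of at least 100 bp.

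Between the 3 YTHDF genes, the long exon of Ythdf3 had the highest fold enrichment in each library. It was 6.57 times that of Ythdf2 in control 1, 11.1 times in control 2 and 6.67 times in starved 2. Against Ythdf1 the ratio was 7.21 in control 2, 9.81 in starved 1 and 5.90 in starved 2. Fold enrichment of a region is relative to its own input and says nothing of how much of each mRNA was present.

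Ythdc1, the nuclear YTH reader, had the strongest reader peaks. Its last exon, exon 17, carried them at the stop codon. Control 1 had a peak at chr5:86835684-86835946 with 451.29-fold enrichment, and control 2 one at chr5:86835684-86836288 with 411.38-fold enrichment. In starved 1 the peak at chr5:86835684-86835947 had 142.47-fold enrichment, and in starved 2 that at chr5:86835684-86835938 had 144.31-fold enrichment. All 4 scores were 3100. Replicates lay close together, and both control libraries were about 3 times as high as both starved ones.

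The means at this Ythdc1 region were 431 ± 28.2 (SD, n = 2) in control and 143 ± 1.30 (SD, n = 2) in starved libraries. The log2 difference, starved minus control, was -1.59 (SE 0.67, 95% interval -3.12 to -0.051), that is 3.0-fold lower after starvation. Its p before adjustment was 0.0442, and the limma adjusted p over 2257 regions was 0.55, so it did not pass. Both controls above both starved libraries was found in 18% of these regions. By mean log2 fold enrichment the region ranked 47 of 2257, and its difference was the 114th from the lowest. The run printed for -35 lies under the peak of every library.

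A further place in Ythdc1 was its exon 4, where the peak of every library spanned exactly the 427 nt of the exon, chr5:86816907-86817333, with a score of 3100. Fold enrichment was 73.59 in control 1, 78.52 in control 2, 59.76 in starved 1 and 31.1 in starved 2. Control libraries were again both above the starved ones, but the starved pair was far apart. Means were 76.1 ± 3.49 (SD, n = 2) and 45.4 ± 20.3 (SD, n = 2), and the log2 difference of -0.82 (SE 0.71, 95% interval -2.44 to 0.80) had an adjusted p of 0.745 in limma. It was -0.35 without starved 2 and -1.29 without starved 1. The exon also overlaps an exon of the non-coding gene Gm43055 on the same strand, so the reads cannot be told apart. Its 1 GGAC site is the run printed for -1457.

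One more Ythdc1 peak, on the first exon at chr5:86804236-86804591 in the 5′ UTR, was found in control 1, with 28.49-fold enrichment and a score of 1097.49. Ythdc2, the remaining YTH gene, had no peak in any of the 4 lists.

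Igf2bp2 had its main region on the last exon, from the stop codon into the 3′ UTR. Control 1 had a peak at chr16:22060314-22060885 with 52.98-fold enrichment and a score of 3100, and a weaker one at chr16:22059468-22059875 with 5.83-fold enrichment and a score of 626.38. Control 2 had a single long peak, chr16:22059543-22060885, with 23.75-fold enrichment and a score of 3100. All 4 libraries had a peak over the stop codon, with the region narrowing to 348 bp in the last of them.

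Starved 1 had the Igf2bp2 peak at chr16:22059995-22060885 with 34.58-fold enrichment and a score of 3100, and starved 2 at chr16:22060538-22060885 with 5.88-fold enrichment and a score of 250.38. The groups overlapped, since starved 1 was above control 2. Means were 38.4 ± 20.7 (SD, n = 2) in control and 20.2 ± 20.3 (SD, n = 2) in starved libraries, with a log2 difference of -1.31 (SE 0.95, 95% interval -3.49 to 0.86) and an adjusted p of 0.699 in limma. That difference rested on starved 2: it was -0.04 without it and -2.59 without starved 1, and it was -0.74 without control 1.

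Weaker Igf2bp2 peaks lay at both ends of the transcript. On the first exon, control 1 had a peak at chr16:22162786-22163066 with 5.68-fold enrichment and a score of 177.41, and starved 1 one at chr16:22162786-22163150 with 11.79-fold enrichment and a score of 650.29. At the end of the 3′ UTR, control 2 had a peak at chr16:22059009-22059308 with 4.33-fold enrichment and a score of 102.34. No library pair of 1 group shared either place.

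Igf2bp1, known from embryonic tissues and tumours, had all 8 of its peaks on its last exon of 6430 nt, which is nearly all 3′ UTR. Over the stop codon, control 1 had a peak at chr11:95963204-95963592 with 7.4-fold enrichment and a score of 597.42, and control 2 one at chr11:95963200-95963570 with 5.25-fold enrichment and a score of 256.06. Neither starved library had a peak there. This region also holds the microRNA gene Mir3063 on the same strand.

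Between 1393 and 1709 nt past the Igf2bp1 stop codon by their centres, 3 libraries had peaks that overlapped in a chain. Control 1 had one at chr11:95961931-95962288 with 3.51-fold enrichment and a score of 85.04, control 2 at chr11:95961651-95962018 with 3.37-fold enrichment and a score of 50.03, and starved 2 at chr11:95961620-95961967 with 35.55-fold enrichment and a score of 3100. Starved 1 had none here. The 2 starved libraries thus differed in whether a peak was called at this place.

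The remaining Igf2bp1 peaks stood alone. Starved 2 had one at chr11:95962292-95962983 with 5.65-fold enrichment and a score of 52.21 and one at chr11:95957163-95957485 with 8.85-fold enrichment and a score of 382.23. Starved 1 had one at chr11:95958474-95958852 with 7.47-fold enrichment and a score of 341.2. None of these 3 places had a peak in a control library. Igf2bp3 had no peak in any list.

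**Figure D2:**
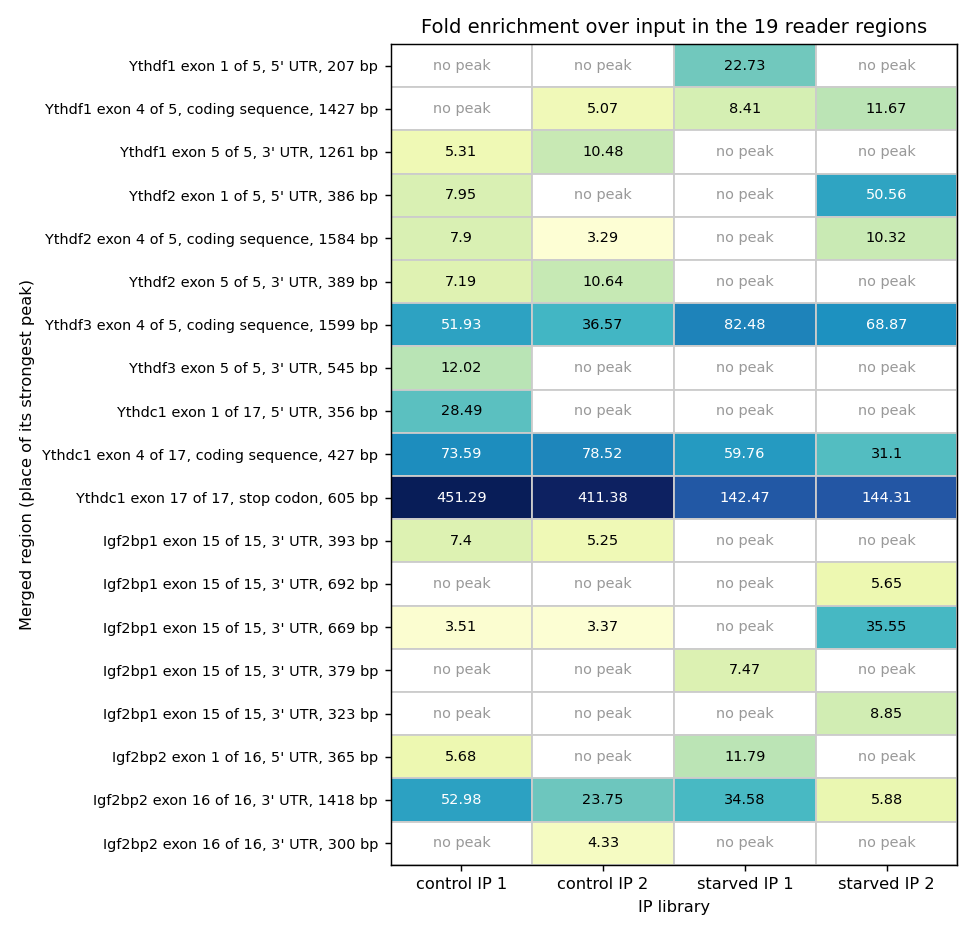
Fold enrichment over input in the 19 merged reader regions (rows, ordered along each transcript) in the 4 IP libraries (columns); darker cells are higher on a log2 colour scale and empty cells had no peak. The strongest row is the last exon of Ythdc1, and 3 rows have values for both controls but for no starved library.

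Of the 19 regions, 7 had a peak in 1 library, 5 in 2, 3 in 3 and 4 in all 4 libraries. The share in all 4 was 21.1%, against 10.7% of all 21168 regions. Of the 6 reader genes with a peak, 5 had one in every library, against 29.2% of 9779 genes. These shares describe 6 genes with long exons and were not tested.

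A peak in both controls but in no starved library was found in 3 of the 19 regions, against 4.15% of all regions. They were the last exon of Ythdf1 and the stop codon regions of Ythdf2 and Igf2bp1. The reverse, both starved and neither control, was found in none, against 3.2% of all regions. The 6 peaks of these 3 regions were weak, from 5.25-fold to 10.64-fold, between percentiles 16.3 and 44.7 of their library. The count was 5 without control 2 and 5 without starved 2. Starved libraries had fewer peaks in their lists, and the part of that in the result was not tested beyond a setting with the same number of peaks per library, where the count was again 3.

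Each of the 6 genes had 1 region on the exon with the stop codon that came within 100 nt of it, a grouping made after the values were seen. Of these 6 regions, control 1 had a peak in 6, control 2 in 5, starved 1 in 2 and starved 2 in 2. In the Ythdf1 region the peak of control 1 was centred 1013 nt past the stop codon, so there it was the peak of control 2 that came near it. Over all 5962 such regions the shares were 56.3%, 52.1%, 54.1% and 50.1%. Both controls but no starved library had a peak in 279 of them (4.68%), and both starved but no control library in 3.66%, against 3 and 0 of the 6 reader regions. Ythdc1 and Igf2bp2 had stop codon peaks in both starved libraries.

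**Figure D3:**
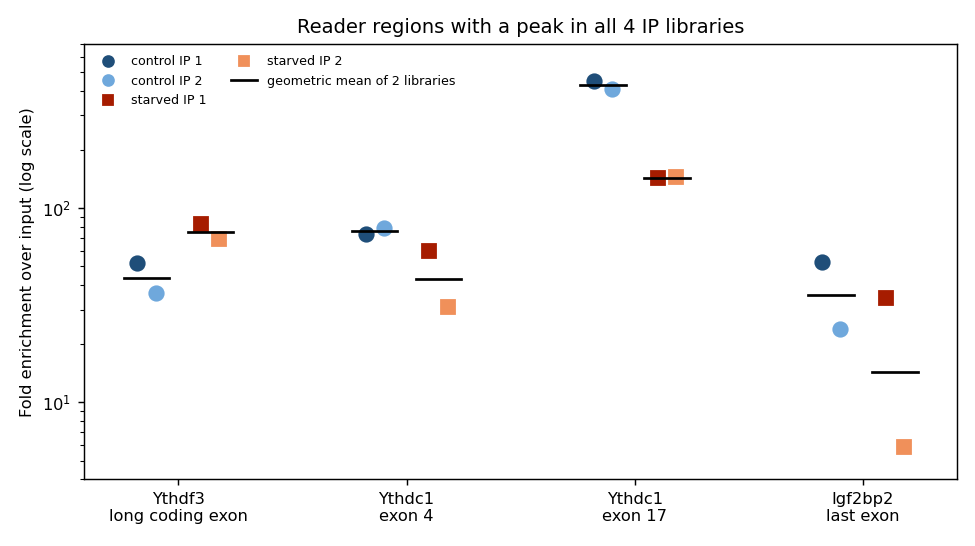
Fold enrichment over input (log axis) in the 4 reader regions with a peak in all 4 IP libraries; each point is 1 library and the line is the geometric mean of 2 libraries. By the strongest peak of each library, starved libraries are above control in Ythdf3 and below in both Ythdc1 regions, and the groups overlap in Igf2bp2.

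Across all 2257 regions with a peak in every library, limma found 0 higher and 0 lower after starvation at an adjusted p under 0.05 (0% called in each direction), so none of the 4 reader regions was called. Before adjustment 109 regions were higher and 83 lower at a p under 0.05, and the lowest adjusted p was 0.0595. The median log2 difference was 0.10 over all regions and -1.07 over the 4 reader regions. This median was -0.19 without starved 2 and -1.43 without starved 1. Of the 4, 1 had both starved libraries on top, against 22.9% of all regions, and 2 had both controls on top, against 18%, and these 2 were both in Ythdc1. With each library centred on its median, the median over all regions moved to -0.11, and the reader regions stood at 0.58 for Ythdf3, -1.03 and -1.80 for exons 4 and 17 of Ythdc1, and -1.53 for Igf2bp2.

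**Figure D4:**
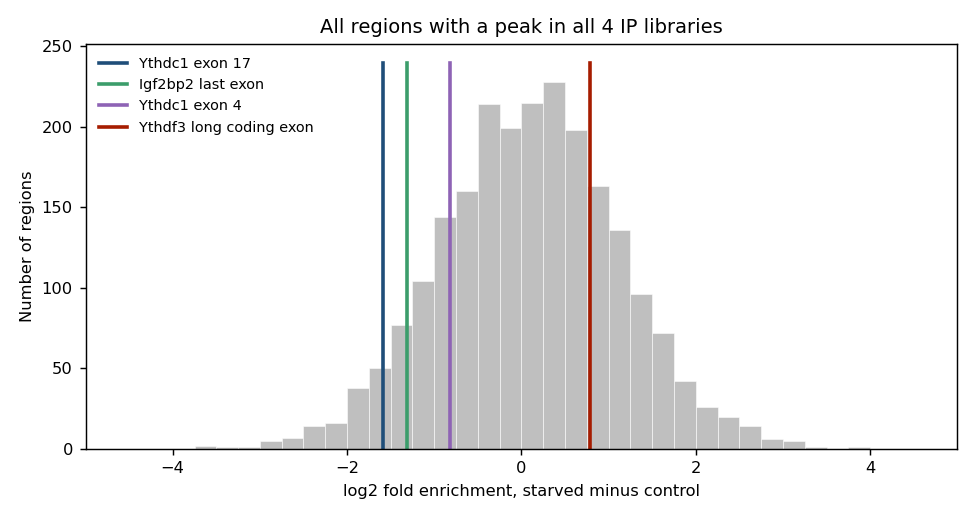
Number of regions by their log2 difference in fold enrichment, starved minus control, in bins of 0.25, for the 2257 regions with a peak in all 4 IP libraries; vertical lines mark the 4 reader regions. The reader regions run from -1.59 to 0.79, at percentiles 5.0 (Ythdc1 last exon), 8.5 (Igf2bp2), 18.6 (Ythdc1 exon 4) and 75.5 (Ythdf3) of the differences.

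By their centres, 16 reader peaks lay in the coding sequence, 18 in the 3′ UTR and 5 in the 5′ UTR, and the other 5 were at most 100 nt from the stop codon. The share in the coding sequence was 36.4%, against 45.6% of all peaks that could be placed, and in the 3′ UTR 40.9% against 37.1%. Exons of at least 400 nt held 95.5% of the reader peaks, against 79.4% of all. Long exons other than the last held 43.2%, against 20.7%, and these were mainly exon 4 of the YTHDF genes and of Ythdc1. An edge of the peak coincided with an exon edge in 31 of 44 reader peaks (70.5%), against 49.5% of all peaks, so many peaks end where an exon ends.

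GGAC on the transcribed strand was present in the 200 bp around the centre of 33 of 44 reader peaks (75%), against 63.6% of all peaks. Within 100 bp it was 31.8% against 41.2%, so the order turned with the window. GGACT, which is contained in the GGAC count, was found in 18.2% against 26.5% in 200 bp. A wide peak places its centre loosely, and these are letters in a window, not mapped m6A sites.

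Other genes of the m6A pathway were read in the same way. Of 9 writer genes, which encode the methyltransferase complex, 8 had a peak and 10 regions had one in all 4 libraries. Zc3h13, a subunit of the complex, had fold enrichments of 42.36, 30.14, 98.86 and 125.97 in control 1, control 2, starved 1 and starved 2, a log2 difference of 1.64. Virma, its scaffold, had 1 region with the starved libraries on top (10.07, 9.65, 14.79 and 12.67, log2 difference 0.47) and 1 with the controls on top (48.06, 19.81, 16.15 and 17.49, log2 difference -0.88). Starved libraries were on top in 2 of the 10 regions, against 22.9% of all regions, and controls in 1, against 18%. No writer region passed the test.

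Both erasers had peaks, in 3 regions common to all libraries. Fto, a demethylase, had fold enrichments of 178.24 and 234.08 in control against 24.81 and 18.37 in starved libraries, a log2 difference of -3.26 with an adjusted p of 0.466 in limma. Alkbh5, the other demethylase, had 22.98 and 6.42 in control against 36.17 and 34.53 in starved libraries, a log2 difference of 1.54. The groups did not overlap in either, which was so with the starved libraries on top in 22.9% and with the controls on top in 18% of all regions, and neither passed the test.

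All 10 genes for other proteins reported to read m6A had a peak, in 9 regions common to all libraries. Groups did not overlap in 2 of these, both with the controls on top, as in 18% of all regions: Hnrnpc, a nuclear RNA-binding protein, at 15.57 and 18.1 in control against 8.5 and 4.81 in starved libraries (log2 difference -1.39), and the translation factor Eif3b at 8.39 and 15.44 against 7.14 and 7.17 (-0.67). Of 13 genes for partners of the readers, 10 had a peak and 3 regions were common to all libraries. Groups did not overlap in any of these. Starved libraries were on top in 2, against 22.9% of all regions, and controls in 1, against 18%. Eif4b, a translation initiation factor, stood at 5.36 and 8.72 in control against 23.45 and 17.91 in starved libraries (1.58), Matr3, a nuclear matrix protein, at 21.02 and 4.7 against 24.13 and 31.44 (1.47), and the splicing factor Srsf3 at 11.26 and 11.51 against 7.09 and 7.33 (-0.66). None of these passed the limma test, in either direction.

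The regions of other genes closest to the long exon of Ythdf3 over the 4 log2 fold enrichments were in Armcx4, Ankrd50, BC027231, Chsy1 and Rnf26, at Euclidean distances of 0.42, 0.42, 0.56, 0.58 and 0.66. Armcx4, the nearest, had fold enrichments of 45.11, 34.01, 82.16 and 53.95 in control 1, control 2, starved 1 and starved 2. The likeness covers 4 libraries and 2257 regions, and says nothing of what the genes share.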

How the data were processed

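MeRIP-seq was done on 4 groups of 2 MEF samples, and peak lists of the 4 IP libraries were used. Per the study's methods the authors used Cutadapt for trimming, HISAT2 (2.0.4 in the submitters' processing notes) for alignment to mm10 and MACS2 to call peaks in each IP library over its input, keeping those over mRNA exons. The methods name a release of MACS2, whereas the column names of the lists are those of an earlier MACS. The authors' deposited values are a fold enrichment (ratio of IP to local input background), a score (the log10 p-value times minus 10) and a false discovery rate in percent. The deposited table of differential sites holds the authors' own fold changes and p-values and was not used. The number of unmapped per-sample columns was 0. Depth is unknown.

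Starts were raised by 1 to count from 1. Peaks overlapping by 1 bp were merged across libraries. For regions with a peak in all 4 libraries, log2 of the highest fold enrichment per library was fitted with limma 3.58.1 (R 4.3.3), without a replicate block, two-sided, with Benjamini-Hochberg adjustment. On simulated data with the same 2257 regions, 95.2% of log2 changes of 4 and 18.8% of log2 changes of 2 were called. Of 2057 unchanged regions, 9 (0.44%) were called. The simulated SDs were region SDs shrunk towards a common value, so their range was narrower than in the data. Peaks were placed by their centres on the longest GENCODE M21 coding transcript, and copies were sought with blastn 2.17.0. Python 3.11.15, pandas 2.3.3, scipy 1.17.1 and samtools 1.23.1 were used. All 8 genes and each of their peaks are named. Writers, erasers, other readers and partners are given as counts, with values where groups did not overlap. The members and lists were chosen with earlier results of these data known. Alternatives were another centring, pseudocount, merging rule, peak filter, annotation and motif window, a replicate block, and each library left out in turn.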

Additional observations from a re-analysis of the deposited data

How the results depend on the processing

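The log2 differences of the 4 reader regions kept their direction and stayed above an adjusted p of 0.05 under each of the 40 alternatives that could be fitted. No reader region was left when regions with a peak at the score limit were removed. The starved minus control difference in reader peaks per library was -3, and -0.5 with peaks of a false discovery rate under 20% only, which 25 of 44 reader peaks met. Leaving out 1 library at a time gave -4.5 to -1.5 for that difference, -1 to 0 for reader genes with a peak, -1.43 to -0.19 for the median log2 difference over reader regions, and 3 to 5 for the regions called in both controls and neither starved library. These last counts, and those for regions at the stop codon, were chosen after seeing the data.

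Across all genes, 2 regions were called lower with libraries centred, with a pseudocount of 1, with the mean of a library's peaks and with peaks of at least 4-fold enrichment, against 0 in the reported fit, and the cause was not tested. GGAC in reader peaks fell from 75% to 31.8% in windows of 100 bp. With a replicate block, 2 regions were called higher and 5 lower, and reader regions had adjusted p-values of 0.497 to 0.794. The labels give replicate numbers but no pairing, and deviations of same-numbered libraries correlated at -0.017 over 2257 regions. The lists hold no reads, so what depth limits could not be measured.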
